A study of Mus musculus with 4 samples.

Results

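Neuronal immediate early genes are switched on within minutes of synaptic activity, before any new protein has been made, and 10 of them were followed here across the 4 libraries of a study of Hunter syndrome (mucopolysaccharidosis type II). They are the transcription factor genes Fos, Fosb, Jun, Junb, Egr1, Egr3, Egr4, Nr4a1 and Npas4, and Arc, which codes for a protein of the postsynaptic side. The 10 genes were chosen by name, and all 10 of 10 were found among the 12700 genes of the count table. RNA was sequenced from cerebral cortex (Cx) and from midbrain, diencephalon and hippocampus (M, in which the methods also place the striatum) of C57BL/6 mice aged 9 months. The libraries labelled CxH and MH came from Ids-ko mice (genotype Ids-/-), which lack the lysosomal enzyme iduronate 2-sulfatase, and those labelled CxWT and MWT came from wild type littermates. Each library was made from RNA pooled over 7 mice, and both areas were taken from the same brains. With 1 library per condition no value has a replicate, so every comparison is between libraries and not between conditions. The sources used here do not say what the mice did, or how they were handled, before the brains were removed.

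Calcium that enters a neuron through synaptic receptors and channels activates kinases, which act on transcription factors already bound near these genes, CREB at cAMP response elements and SRF with its ELK partners at CArG boxes. The Fos and Jun proteins pair to form AP-1, the EGR proteins are zinc finger factors that bind GC-rich sites, NR4A1 is an orphan nuclear receptor, and NPAS4 is a bHLH-PAS factor that responds above all to calcium entry. Arc mRNA travels to dendrites, where its protein acts in the removal of AMPA receptors from synapses. All of these transcripts are short-lived, and in the forebrain they are widely used as a sign of recently active neurons.

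The disrupted gene and the markers of the brain areas went against some labels, so libraries are named here by label only. Ids, which codes for the missing enzyme, was measured in RPM, the reads of a gene scaled to 1e+06 aligned reads of its library. It stood at 135 RPM in CxH against 354 in CxWT, but at 368 RPM in MH against 155 in MWT, so the M library with the knock-out label was the one richer in Ids. The summed level of 15 markers of cortical excitatory neurons was 5258 RPM in CxH and 4627 in MH, against 1033 in CxWT and 823 in MWT. The summed level of 19 markers of midbrain and diencephalon was 48.1 RPM in CxH and 58.2 in MH, against 607 in CxWT and 531 in MWT. En1, Slc6a4 and Hcrt had at most 3 reads in MH, a library labelled as midbrain, diencephalon and hippocampus, while in CxWT, labelled cerebral cortex, no midbrain or diencephalon marker was that low. Both libraries labelled Ids-ko therefore carried high cortical markers, and both labelled wild type carried high midbrain and diencephalon markers. This did not extend to all of M, since summed striatal markers were higher in CxH and MH (979 and 826 RPM) than in CxWT and MWT (363 and 332). Summed hippocampal markers were level. In every Ids-ko against wt comparison below, the label and the cortical, midbrain and diencephalon markers cannot be told apart. In bulk tissue fewer cells of a type and less RNA per cell cannot be told apart either.

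Of the 10 genes, 7 had a promoter in the RefSeq table of the GRCm38.p6 build, a later build than that of the counts, and the 250 bases before the start of transcription were searched on both strands. The 5 promoters below are shown because they hold most of the sites found, and capitals mark those sites (CGTCA is TGACG read on the other strand). TGACG, the shorter form of the cAMP response element and a part of the full element TGACGTCA, was present in 6 of the 7 promoters, in all but that of Jun, and in 17.8% of the 32851 promoter windows of the table. The EGR site GCGNGGGCG was present in Fosb and Nr4a1 and in 4.70% of windows, and the TATA box TATAAA in Fos and in 12.4%. Only these exact letters were searched for, and the promoters of Egr4 and Npas4 hold tatataa, which the search does not match. The full element (1.55% of windows), the AP-1 site TGANTCA (6.75%) and the CArG box (1.47%) had no match in these 7 windows. The Fos promoter, chr12:85473640-85473889 (plus strand), has TGACG at -129 and at -66 from the start and the TATA box at -33. The promoters of Fosb, chr7:19310046-19310295 (minus strand), and Egr4, chr6:85513590-85513839 (minus strand), follow, with 1 and 2 matches to TGACG. Those of Nr4a1, chr15:101266596-101266845 (plus strand), and Npas4, chr19:4989972-4990221 (minus strand), have 4 and 2 matches.
Fos: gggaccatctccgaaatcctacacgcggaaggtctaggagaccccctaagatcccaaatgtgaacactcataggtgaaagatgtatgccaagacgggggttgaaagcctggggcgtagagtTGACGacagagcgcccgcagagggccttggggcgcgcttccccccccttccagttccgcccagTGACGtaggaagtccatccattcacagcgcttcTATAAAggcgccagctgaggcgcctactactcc
Fosb: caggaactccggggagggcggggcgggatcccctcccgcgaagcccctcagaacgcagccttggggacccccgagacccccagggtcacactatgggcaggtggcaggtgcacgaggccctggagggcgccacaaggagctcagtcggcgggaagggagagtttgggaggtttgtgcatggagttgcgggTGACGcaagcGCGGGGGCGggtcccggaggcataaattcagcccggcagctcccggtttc
Egr4: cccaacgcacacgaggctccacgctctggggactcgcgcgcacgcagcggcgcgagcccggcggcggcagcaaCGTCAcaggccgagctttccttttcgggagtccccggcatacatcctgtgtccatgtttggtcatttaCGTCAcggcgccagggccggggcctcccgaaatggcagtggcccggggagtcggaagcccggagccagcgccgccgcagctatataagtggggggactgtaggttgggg
Nr4a1: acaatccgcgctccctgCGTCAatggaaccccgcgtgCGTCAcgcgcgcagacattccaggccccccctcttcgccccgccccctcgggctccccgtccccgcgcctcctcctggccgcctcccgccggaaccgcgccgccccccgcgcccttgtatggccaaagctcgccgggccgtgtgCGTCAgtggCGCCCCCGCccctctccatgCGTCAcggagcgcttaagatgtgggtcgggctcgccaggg
Npas4: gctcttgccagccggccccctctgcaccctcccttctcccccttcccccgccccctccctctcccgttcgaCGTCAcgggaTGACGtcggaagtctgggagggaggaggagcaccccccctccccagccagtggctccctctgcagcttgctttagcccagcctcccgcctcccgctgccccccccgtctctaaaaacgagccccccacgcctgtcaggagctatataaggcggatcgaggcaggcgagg
The promoter of Nr4a1 holds the most matches to TGACG among the 7, at -233, -213, -69 and -40, with the EGR site at -60. In Npas4 the matches begin at -179 and -169, on opposite strands, and in Fosb the EGR site begins at -50, beside the match to TGACG at -60. These are matches of letters, and no binding was measured.

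All 10 genes stood higher in both libraries labelled Ids-ko than in either library labelled wild type. The share of all genes that did so was not counted. Together the 10 genes took 38922 reads in CxH (1011 RPM), 30308 in MH (811 RPM), 7427 in CxWT (221 RPM) and 4471 in MWT (154 RPM), or 0.166%, 0.137%, 0.0366% and 0.0273% of the reads on genes. In 9 of the 10 genes the libraries ran in 1 order, CxH, MH, CxWT and MWT from high to low, an order held by 12.6% of all genes. Npas4 differed only in that MWT lay above CxWT. Between CxH and MH the intervals of Fosb, Jun and Npas4 overlapped, and once GC content and length were corrected for, 4 of the 10 genes (Fos, Junb, Egr1 and Arc) ran in that order.

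**Figure D1:**
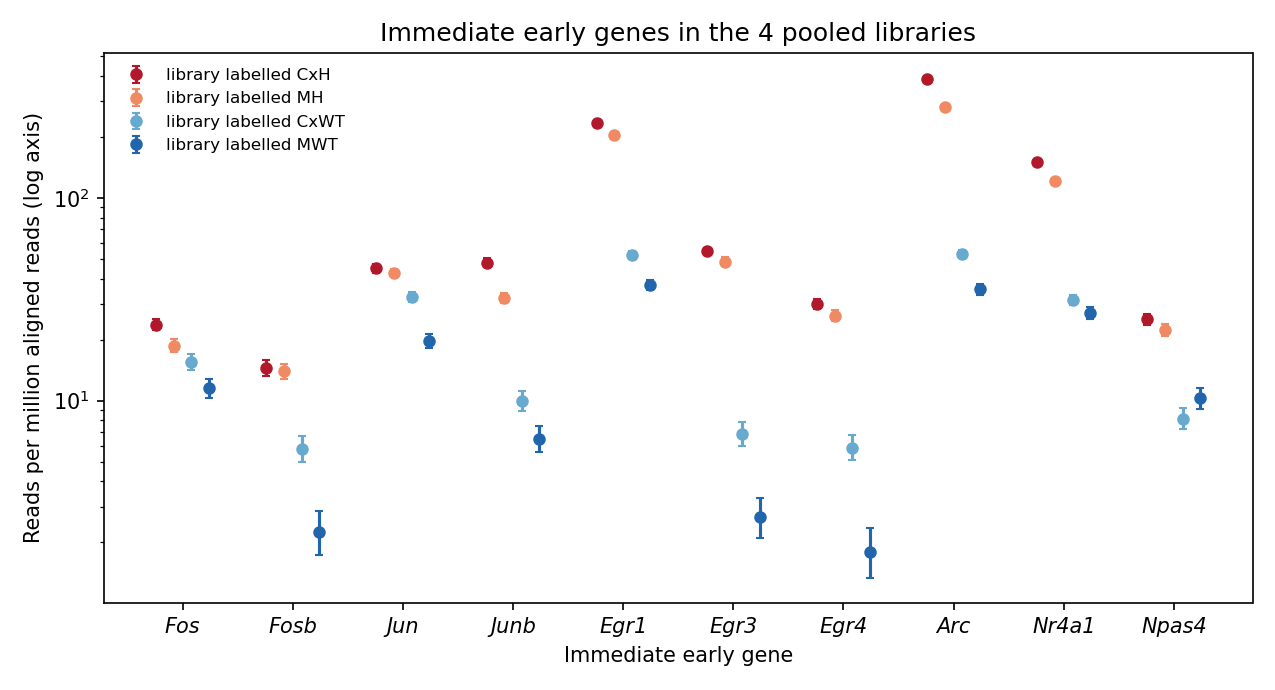
Level of each of the 10 immediate early genes in the 4 pooled libraries, in RPM on a log axis. Points are single libraries and bars are exact 95% Clopper-Pearson intervals, which cover counting error only. For every gene the libraries labelled CxH and MH sit above those labelled CxWT and MWT, by the least in Fos (18.7 in MH against 15.5 in CxWT) and by far more in Egr3 (48.6 against 6.87).

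To compare 2 libraries, the log2 ratio of RPM was taken with its standard error from counting (each ± below). Following the methods of the study, calls required a p-value below 0.05 by the Poisson likelihood ratio test together with a log2 ratio of 0.7 or more in either direction. In Cx, 8 of the 10 genes were called higher in CxH than in CxWT, where 9.46% of all 12700 genes were called higher. In M, 10 of 10 were called higher in MH than in MWT, against 12.3% of all genes. As many as 8 were called higher in both, against 6.23% of all genes. None was called lower in any of the 6 pairs of libraries (of all genes, 11.5% were in CxH vs. CxWT, 12.7% in MH vs. MWT, 1.06% in CxH vs. MH, 2.11% in CxWT vs. MWT, 15.1% for CxH vs. MWT and 8.89% for MH vs. CxWT). The median log2 ratio of the 10 genes was 2.22 in Cx and 2.38 in M, while the median of all genes was -0.09 and -0.07. Of the 10 genes, 6 in Cx and 7 in M were among the 127 genes with the highest ratios of the table.

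**Figure D2:**
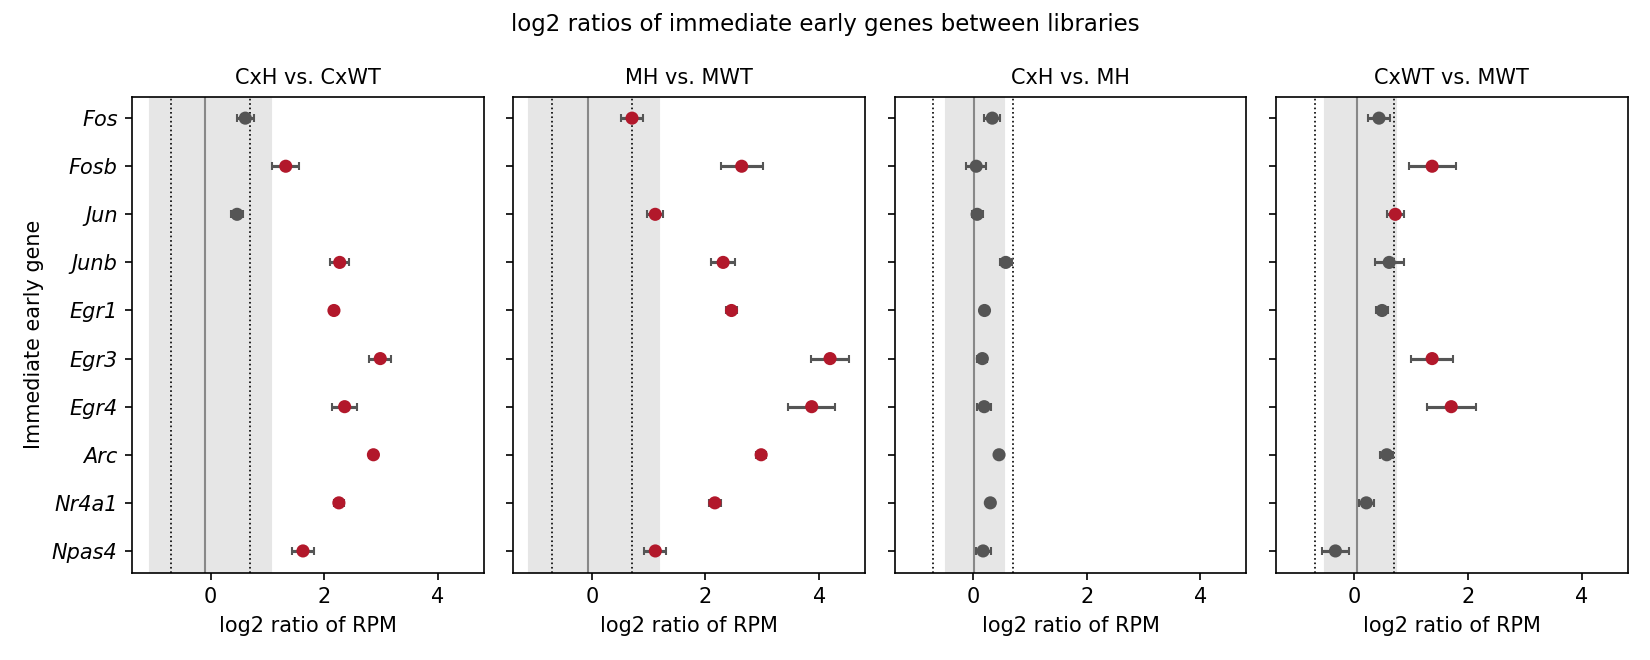
log2 ratio of RPM of each gene in the 4 comparisons of the study, as points with 95% counting intervals, red where the gene was called. The grey band spans the 5th to the 95th percentile of all 12700 genes, the grey line their median and the dotted lines the threshold of 0.7 in size. Most genes lie far to the right of the band in the first 2 panels, and none passes 0.7 in CxH vs. MH, where Junb, at 0.58, is the highest.

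Arc was far higher in CxH and MH than in the other libraries. Its level was 385 RPM in CxH (95% exact Clopper-Pearson interval 379 to 391), 280.2 in MH (275 to 286), 52.8 in CxWT (50.3 to 55.3) and 35.5 in MWT (33.4 to 37.8). No interval overlapped another. The level of Arc in CxH was 7.29 times that in CxWT, a log2 ratio of 2.87 ± 0.036, and its level in MH was 7.89 times that in MWT, a log2 ratio of 2.98 ± 0.047. Only 31 genes of the table had a higher ratio in Cx and 44 in M. The gene lies on chromosome 15, at 74499513 to 74503000 on the minus strand (NCBI37/mm9, GENCODE vM1).

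Among the EGR factors, Egr3 had the largest ratio of all 10 genes in Cx and in M, and Egr4 the next largest in M. Egr3, on chromosome 14 at 70477252 to 70479964, had 54.5 RPM in CxH, 48.6 in MH, 6.87 in CxWT and 2.66 in MWT. The last of these rests on 77 reads, against 2097 in CxH. The log2 ratio of Egr3 came to 2.99 ± 0.10 in Cx and 4.19 ± 0.17 in M, an 18.3-fold difference in M that only 11 genes of the table exceeded. Egr4, on chromosome 6 at 85461125 to 85463583, had 30.1 RPM in CxH, 26.3 in MH, 5.86 in CxWT and 1.80 in MWT, the last from 52 reads. For Egr4 the log2 ratio reached 2.36 ± 0.11 in Cx and 3.87 ± 0.21 in M. For both genes the library labelled MWT stood lowest, well apart from CxWT.

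Egr1, the most abundant EGR factor, followed the same order with a smaller range. It had 235 RPM in CxH (231 to 240.2), 205 in MH (200.1 to 209), 52.2 in CxWT (49.8 to 54.7) and 37.2 in MWT (35.1 to 39.5). Egr1 thus had a Cx ratio of 2.17 ± 0.038 and an M ratio of 2.46 ± 0.047 on the log2 scale. The 3' end of Egr1 overlaps Gm17507 on the other strand, and whether the counting used strand is not given in the sources used here, so reads of the overlap cannot be assigned.

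The AP-1 genes did not move as 1 group, and Junb and Fosb ranged more widely than Jun and Fos. Junb, whose protein often restrains JUN, had 48.0 RPM in CxH, 32.2 in MH, 9.94 in CxWT and 6.49 in MWT. Jun had 44.9 RPM in CxH, 42.7 in MH, 32.5 in CxWT and 19.7 in MWT. The libraries thus spanned a 7.39-fold range for Junb and a 2.28-fold range for Jun. The log2 ratio of Junb was 2.27 ± 0.086 in Cx and 2.31 ± 0.11 in M. That of Jun was 0.47 ± 0.056 in Cx, short of the threshold, and 1.12 ± 0.070 in M, where it was called. Jun overlaps the non-coding BC042782 on the other strand, with the same limit as for Egr1.

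Fos, the best known gene of the group, had the smallest range of the 10. Its level was 23.7 RPM in CxH (22.2 to 25.3), 18.7 in MH (17.4 to 20.2), 15.5 in CxWT (14.2 to 16.9) and 11.5 in MWT (10.3 to 12.8). The log2 ratio of Fos was 0.61 ± 0.079 in Cx, not called, and 0.71 ± 0.096 in M, at the threshold. With TMM scaling the Cx ratio became 0.71 and was called, and with column totals the M ratio became 0.65 and was not. Fosb, from which neurons also make the stable ΔFosB, had 14.5 RPM in CxH, 14.0 in MH, 5.80 in CxWT and 2.25 in MWT. On the log2 scale Fosb differed by 1.32 ± 0.12 in Cx, and by 2.64 ± 0.19 in M. The counts are per gene, so the full-length and short forms of Fosb were not separated.

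Within the families, Fosb, Junb and Egr3 took larger shares of the reads in CxH and MH than in CxWT and MWT. Fosb took 38.0% of the reads of Fos and Fosb in CxH (35.5 to 40.5) and 42.7% in MH (39.9 to 45.5). Its share was 27.2% in CxWT (24.0 to 30.7) and 16.4% in MWT (12.9 to 20.4). Junb took 51.7% of the reads of Jun and Junb in CxH and 43.0% in MH, but 23.4% in CxWT and 24.8% in MWT, whose intervals overlap. Egr3 took 17.0% and 17.4% of the reads of Egr1, Egr3 and Egr4 in CxH and MH, and 10.6% and 6.38% in CxWT and MWT. The share of Egr4 was alike in CxH, MH and CxWT, from 9.02% to 9.40%, and 4.31% in MWT (3.23 to 5.61). The share of Egr1 in the reads of all 10 genes lay between 23.3% and 25.2% in the 4 libraries, while that of Arc was 38.1% in CxH, 34.5% in MH, 23.9% in CxWT and 23.0% in MWT.

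**Figure D3:**
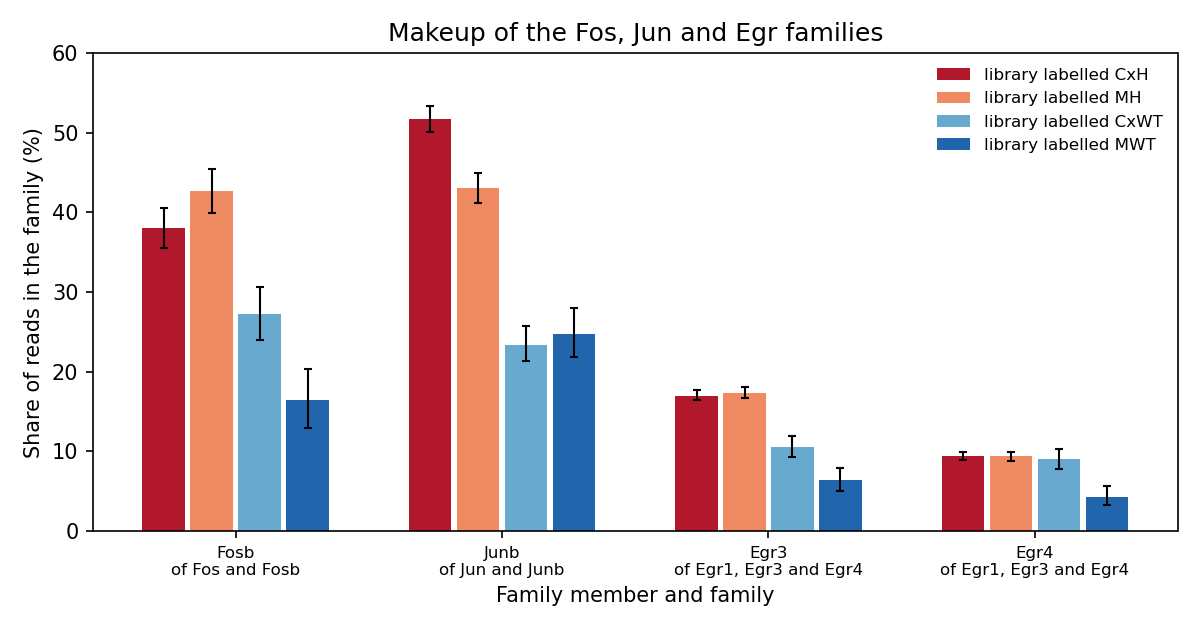
Share of the reads of a family taken by Fosb, Junb, Egr3 and Egr4 in each library, in percent, with exact 95% Clopper-Pearson intervals (counting error only). The shares of Fosb, Junb and Egr3 are higher in the libraries labelled CxH and MH than in those labelled CxWT and MWT, and Egr4 is low in MWT alone, at 4.31%.

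Nr4a1 and Npas4 belong to no shared family here and behaved differently. Nr4a1, which takes part in the response of neurons to sustained activity, had 150 RPM in CxH (146 to 154), 122 in MH (118 to 125), 31.4 in CxWT (29.5 to 33.3) and 27.1 in MWT (25.2 to 29.0). CxH thus stood above CxWT by 2.26 ± 0.048, and MH above MWT by 2.17 ± 0.056, on the log2 scale. Npas4, which shapes inhibitory synapses on active neurons, had 25.2 RPM in CxH (23.6 to 26.8), 22.3 in MH (20.8 to 23.8), 8.15 in CxWT (7.21 to 9.17) and 10.3 in MWT (9.13 to 11.5). Npas4 alone of the 10 had more RPM in MWT than in CxWT, with a log2 ratio of -0.33 ± 0.12 between them that was not called. Its distance between Ids-ko and wt labels was 1.63 ± 0.099 in Cx but 1.12 ± 0.098 in M, on the log2 scale.

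Levels of different genes can be set side by side only per length of transcript. On a scale of RPM per kilobase of the longest protein-coding transcript, Arc was first in CxH at 126, followed by Egr1 at 75.9, Nr4a1 at 60.6 and Egr3 at 38.5. In MH the first 4 were in the same order, at 91.8, 66.0, 49.1 and 34.3. In CxWT, Arc at 17.3 and Egr1 at 16.8 were nearly level, and in MWT Egr1 stood first, just above Arc at 11.6. Egr3 was the fourth highest gene per length in CxH and MH, but ranked 7 in CxWT at 4.85 and 8 in MWT at 1.88. Fosb was lowest of the 10 in every library, from 3.87 in CxH to 0.599 in MWT. These levels, and the ranks taken from them, depend on the annotated length, which for Egr3 is a transcript of 1416 bases.

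The ratio between Ids-ko and wt labels differed between Cx and M for 6 of the 10 genes by more than counting error, the interval of the difference leaving out 0. The share of all genes that pass this rule was not counted. The log2 ratio in Cx minus that in M was -1.51 ± 0.23 for Egr4, -1.31 ± 0.22 for Fosb, -1.21 ± 0.20 for Egr3, -0.65 ± 0.090 for Jun and -0.29 ± 0.060 for Egr1, so these were further apart in M. For Npas4 it was 0.51 ± 0.14, further apart in Cx. Fos, Junb, Arc and Nr4a1 gave differences from -0.11 to 0.09, within counting error. Variation between pools of mice was not measured and could not be set against these differences.

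The label Cx was set against the label M within each genotype label, although both libraries of a pair had similar summed levels of cortical and of midbrain and diencephalon markers, so these pairs are named by label only. None of the 10 genes was called in CxH vs. MH, where 2.43% of all genes were called higher in CxH. All 10 log2 ratios were above 0, from 0.06 for Fosb to 0.58 for Junb, with a median of 0.20, and 51.9% of all genes were above 0. The intervals of Fosb and Jun included 0. Arc was at 0.46 ± 0.018, a 1.37-fold difference. Once GC content and length were corrected for, the ratios of Fosb, Jun, Egr3 and Egr4 fell below 0 and 6 stayed above it, with a median of 0.07.

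In CxWT vs. MWT, 4 of the 10 were called higher in CxWT, where 5.43% of all genes were. These were Egr4 at 1.71 ± 0.22, Egr3 at 1.37 ± 0.19, Fosb at 1.37 ± 0.21 and Jun at 0.72 ± 0.075. They include the 3 genes with the fewest reads in MWT, 52 for Egr4, 65 for Fosb and 77 for Egr3. The other 6 ranged from -0.33 for Npas4 to 0.61 for Junb, and the median of the 10 was 0.59. The call of Jun was lost with every other scaling, at 0.63 to 0.67, and after the correction for GC content and length, at 0.52. The same correction moved Egr4 most, to 1.03, and brought Egr3 to 0.91, Fosb to 1.10, Junb to 0.07 and Nr4a1 to -0.04. With a coefficient of variation of 0.4 assumed between pools, 0 of the 10 were called in this comparison, and 0.063% of all genes were called higher. Under that assumption 6 were called higher in CxH vs. CxWT (1.57% of all genes) and 7 in MH vs. MWT (1.85%). Each comparison between the labels Cx and M shares its libraries with the comparisons between genotypes, so these values are not independent of those above.

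The pairs that differ in both labels were not comparisons of the study. All 10 genes were called higher in CxH than in MWT (15.6% of all genes), with a median of 2.68, and 8 were in MH over CxWT (6.41% of all genes), with a median of 1.83. Fos, at 0.27 ± 0.083, and Jun, at 0.40 ± 0.057, were not called in the second pair.

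Other genes of the rapid response to activity were called higher in part. Of 34 such genes analysed, 20 were called higher in CxH than in CxWT and 17 in MH than in MWT, and 0 lower in either, where 9.46% and 12.3% of all genes were higher. With GC content and length corrected for, 17 were higher in Cx (7.96% of all genes) and 16 in M (8.91%), and Maff, at -0.80, was called lower in M, as were 9.31% of all genes. On the log2 scale their median ratios were 0.88 (Cx) and 0.70 (M), or 0.69 and 0.47 after that correction. With the variation of 0.4 assumed between pools, 3 of the 34 were called higher in Cx (1.57% of all genes) and 8 in M (1.85%). Egr2, the EGR factor outside the 10, had 8.62 RPM in CxH, 9.53 in MH, 1.40 in CxWT and 1.04 in MWT, or log2 ratios of 2.62 ± 0.22 for Cx and 3.20 ± 0.27 for M. Nr4a3, a relative of Nr4a1, was at 1.63 ± 0.16 in Cx and 2.60 ± 0.20 in M. Klf10 was at 1.97 ± 0.10 in Cx and 2.12 ± 0.11 in M, and Ier5 at 1.76 ± 0.078 and 2.19 ± 0.094. Ier5l was at 1.16 ± 0.11 in Cx and 2.48 ± 0.22 in M, and Dusp14, a phosphatase, at 1.58 ± 0.082 and 2.29 ± 0.11. Between the labels Cx and M, 2 of the 34 were called higher in CxH than in MH (2.43% of all genes), Ier5l and Klf2, and both calls were lost once GC content and length were corrected for, at 0.51. Higher in CxWT than in MWT were 4 (5.43% of all genes), namely Jund, Ier5l, Amigo3 and Csrnp1, and with that correction Ier5l alone of these 4 was called. These were named after their values were seen.

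Genes induced later by activity had medians of 0.54 in Cx and 0.59 in M. Of 20 such genes, 8 were called higher and 2 lower in Cx, where 9.46% and 11.5% of all genes were. In M, 9 were called higher and 1 lower, against 12.3% and 12.7% of all genes. With GC content and length corrected for, 9 were higher and 1 lower in Cx, and 11 higher and 2 lower in M. Of all genes, 7.96% and 8.91% were then higher, and 9.31% lower in M. The corrected medians were 0.42 and 0.88, and the lower call gained in M was Pim1, at -1.16. At the assumed variation of 0.4, without that correction, the counts became 1 higher in Cx and 0 in M, and 0 lower in either, where 1.57% and 1.85% of all genes were higher. Ptgs2, the inducible cyclooxygenase, was at 2.23 ± 0.17 in Cx, and CxWT had less of it than MWT, at 2.47 against 7.22 RPM. Inhba, an activin subunit, was at 1.67 ± 0.29 in Cx and 1.77 ± 0.33 in M, and Nptx1, a neuronal pentraxin of the synapse, at 1.62 ± 0.031 and 1.66 ± 0.035. Plk2, a kinase that takes part in synaptic scaling, was at 1.61 ± 0.049 and 1.56 ± 0.049, and Nptx2, another neuronal pentraxin, at 1.16 ± 0.062 and 1.34 ± 0.073. The genes called lower before correction, named after their values were seen, were Scg2 and Syt4. Scg2, a secretogranin, was at -1.34 ± 0.023 in Cx and -1.28 ± 0.022 in M. The synaptotagmin Syt4 was at -0.98 ± 0.026 in Cx, a call lost at -0.60 once GC content and length were corrected for.

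Of 31 upstream regulators, 9 were called higher and 0 lower in Cx, and 13 higher and 1 lower in M, with medians of 0.52 and 0.50. The shares of all genes are those given for the delayed genes before correction. Mef2c was at 2.03 ± 0.038 in Cx and 1.82 ± 0.038 in M, and Camkk2, a kinase that activates CaM kinases, at 1.76 ± 0.057 and 2.01 ± 0.072. Srf, whose protein binds the CArG box, was at 1.17 ± 0.047 in Cx and 1.29 ± 0.056 in M. With GC content and length corrected for, Srf was at 0.61 in M and no longer called. Camk4, a calcium-dependent kinase, was at 1.23 ± 0.034 in Cx and 1.06 ± 0.034 in M. Crtc1, a coactivator of CREB, was at 1.14 ± 0.030 in Cx and 1.46 ± 0.039 in M. Of the corepressors of EGR factors, Nab2 was at 1.12 ± 0.075 in Cx and 1.47 ± 0.087 in M, and was called in both. Nab1 was at -0.48 ± 0.070 in Cx, not called, and at -0.74 ± 0.067 in M, a call lost at -0.61 after the same correction. The count of upstream regulators called higher in Cx became 14 with TMM scaling (11.4% of all genes), and the count higher in M became 8 with GC content and length corrected for (8.91% of all genes). Of the 5 calls lost, those of Srf, Camkk1 and Hdac5 fell below the threshold, while Mrtfa and Hdac4 had no GC content and length and were left out. At the assumed variation of 0.4, 2 of the 31 were called higher in Cx and 2 in M, where 1.57% and 1.85% of all genes were.

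**Figure D4:**
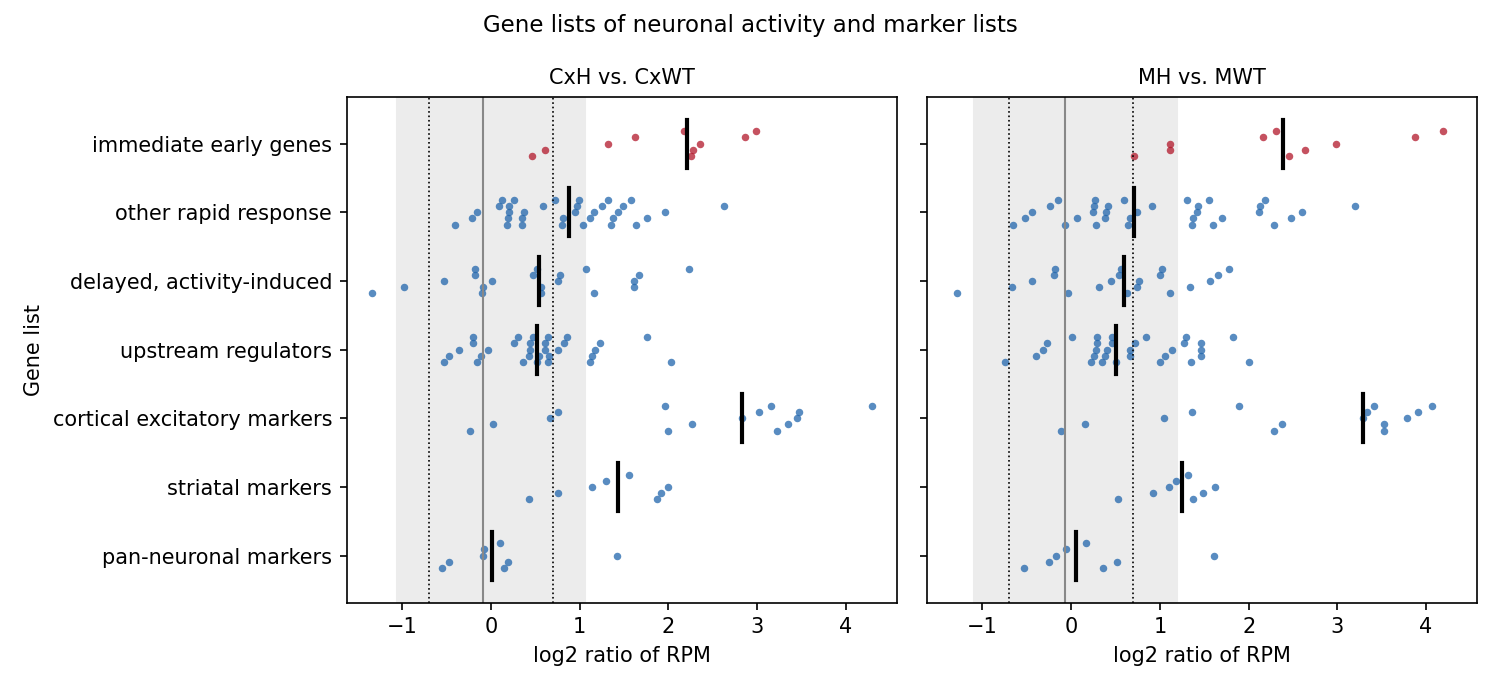
log2 ratio of RPM for the genes of 4 lists of neuronal activity and 3 lists of cell markers, in Cx (CxH vs. CxWT) and in M (MH vs. MWT). Points are genes, black bars are list medians, the grey band and line are the 5th to 95th percentile and the median of all genes, and dotted lines mark 0.7 in size. The medians of the immediate early genes (2.22 and 2.38) lie above those of the other activity lists and below those of the cortical excitatory neuron markers (2.83 and 3.29).

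The cortical excitatory neuron markers moved with the immediate early genes. Of the 15 markers, 12 were called higher in Cx (9.46% of all genes) and 13 in M (12.3%), at medians of 2.83 and 3.29 on the log2 scale. For each 1000 reads on these markers, the 10 immediate early genes together had 192 reads in CxH (95% counting interval 190.2 to 194), 175 in MH (173 to 177), 214 in CxWT (209 to 219) and 188 in MWT (182 to 194). This measure, chosen after the data were seen, spanned a 1.22-fold range over the 4 libraries, and the summed RPM of the same genes a 6.54-fold range. Gene by gene it narrowed the range of 8, such as Egr3 from 20.5-fold to 3.25-fold, and widened that of Fos from 2.07-fold to 3.70-fold and of Jun from 2.28-fold to 3.68-fold. Camk2a gave 111566 of the 202432 marker reads in CxH, so the measure leans on that gene.

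Per 1000 cortical marker reads the 10 genes no longer ran in the same order. Egr1 had 44.8 in CxH, 44.2 in MH, 50.6 in CxWT and 45.2 in MWT, and Nr4a1 had 28.5, 26.3, 30.4 and 32.9, ranges of 1.14-fold and 1.25-fold. Fos was higher in the libraries labelled wild type, at 15.0 in CxWT and 13.9 in MWT against 4.51 in CxH and 4.05 in MH. Jun was at 31.4 and 23.9 against 8.53 and 9.23, and Npas4 at 7.89 and 12.5 against 4.79 and 4.81, in the same order of libraries. Egr3 was still higher in CxH and MH, at 10.4 and 10.5, than in CxWT and MWT, at 6.65 and 3.23, and so was Arc, at 73.2 and 60.6 against 51.1 and 43.1. The part of cortical neurons in the levels of the immediate early genes was not tested.

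Apart from the midbrain and diencephalon markers above, the markers of other cells spanned smaller ranges. The 8 pan-neuronal markers summed to between 3665 RPM (CxWT) and 3802 RPM (CxH and MH), and against them the 10 genes had 266 reads per 1000 in CxH, 213 in MH, 60.3 in CxWT and 41.5 in MWT. The 8 striatal markers, of which 7 were called higher in each of Cx and M (9.46% and 12.3% of all genes), summed to 979 RPM in CxH, 826 in MH, 363 in CxWT and 332 in MWT. For each 1000 reads on them the 10 genes had 1032 reads in CxH, 982 in MH, 608 in CxWT and 465 in MWT. The 8 oligodendrocyte markers went the other way, at 4831, 5021, 9163 and 7290.4 RPM. Microglia markers lay between 345 and 582 RPM, astrocyte markers between 2937 and 3970.3, endothelial markers between 153 and 212 and 5 hippocampal markers between 158 and 167. Single hippocampal markers went both ways, with log2 ratios from -1.07 to 2.17 in Cx, where 1 was called higher and 1 lower (9.46% and 11.5% of all genes), and from -0.67 to 1.46 in M, where 3 were called higher (12.3%). After the correction for GC content and length 1 was called higher in M (8.91% of genes), and the median there went from 0.87 to 0.13. The part of these cells in the results was not tested.

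The 10 genes are also rich in GC, and the log2 ratios of all genes rose with GC content, though little in MH vs. CxWT. The transcripts of the 10 genes had from 51.9% (Fos) to 68.4% GC (Egr4), with a median of 56.9%, and 10 of 10 were above the median of all genes, 50.7%. Over the 10706 genes that reached 100 reads in all 4 libraries, which are not independent of each other, the Spearman correlation of the log2 ratio with GC content was 0.461 for CxH vs. CxWT, 0.486 for MH vs. MWT, 0.582 for CxH vs. MH and 0.629 for CxWT vs. MWT. Of the pairs that differ in both labels, it was 0.686 for CxH vs. MWT and 0.163 for MH vs. CxWT, where the 10 genes had a median of 1.83, or 1.76 once corrected. Of these 10706 genes, the 1071 with at least 58.4% GC had medians of 0.23 in Cx and 0.53 in M on the log2 scale. In GC content 4 of the 10 genes (Junb, Egr3, Egr4 and Arc) reached that level. Egr3 and Egr4 had under 100 reads in MWT, at 77 and 52, and so were not among the 1071. The part of GC content in the ratios of the 10 genes was not tested beyond the correction that follows. Once both GC content and length were corrected for, the median of the 10 genes was 1.97 in Cx and 2.06 in M, and 8 and 10 of them were called higher as before, where 7.96% and 8.91% of genes were. Egr4, the gene richest in GC, went from 3.87 to 3.08 in M, and Fos, the least rich, from 0.71 to 0.79.

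**Figure D5:**
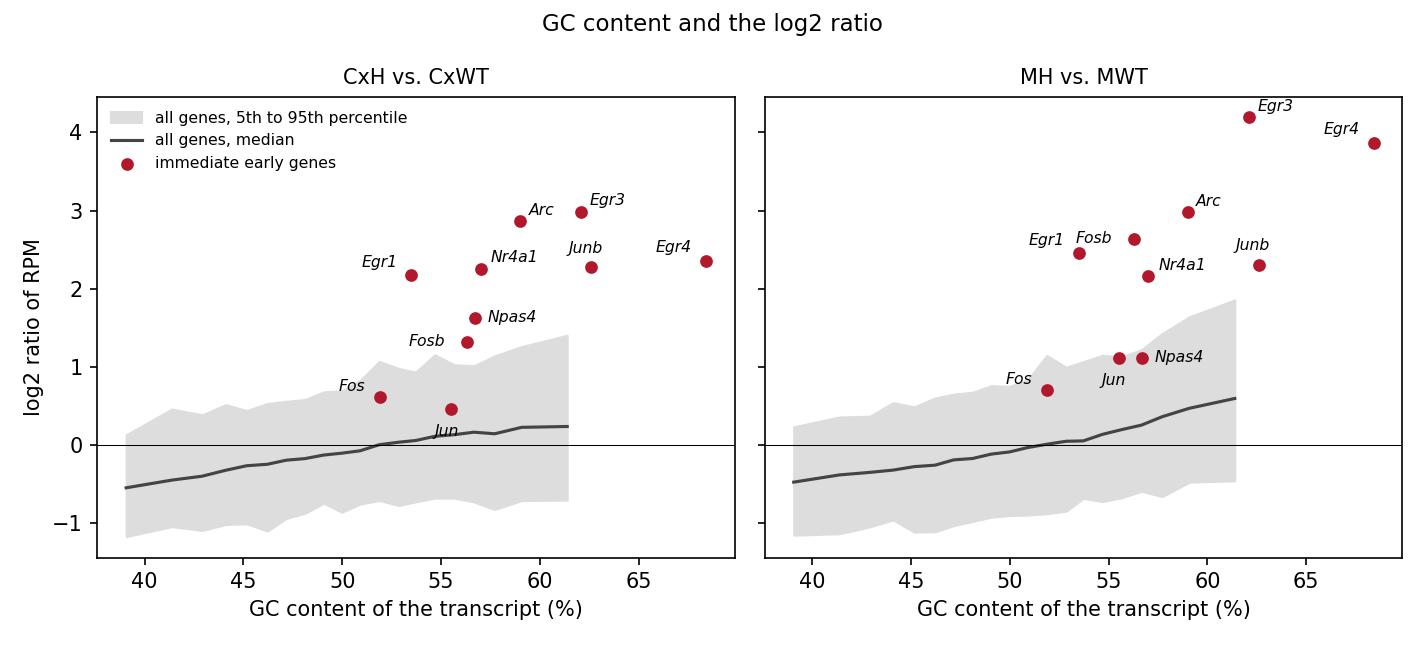
log2 ratio of RPM against the GC content of the transcript in percent, for the 10 immediate early genes (red points) in Cx (CxH vs. CxWT) and in M (MH vs. MWT). The line is the median and the band the 5th to 95th percentile, in 20 bins of GC content. Both were taken over the 10706 genes that reached 100 reads in all 4 libraries. Fosb, Egr3 and Egr4 stayed below 100 reads in MWT and are not among those genes. Fos and Jun lie inside the band in both comparisons, Npas4 does in M, and Egr3 lies furthest above it in M, at 4.19.

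The genes whose pattern over the 4 libraries was most like the mean of the 10 were found by the distance between log2 RPM values, each centred on its own mean. Among the nearest were Klhl34 at a distance of 0.0977, Lzts1 at 0.107, Plxnd1 at 0.178 and Islr2 at 0.183, and, farther off, Rasal1, Cabp1, Slc8a2 and Agap2. Lzts1 had 23.8 RPM in CxH, 20.7 in MH, 6.13 in CxWT and 4.11 in MWT, the order held by 9 of the 10 genes. Among the 10 genes themselves, Egr1 was nearest to their mean at 0.251, then Junb at 0.291 and Nr4a1 at 0.369, and Fos at 1.48 and Egr3 at 1.54 were farthest. With 4 libraries, many genes can lie this near.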

How the data were processed

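Poly(A) RNA of 4 pools was sequenced by the authors on a SOLiD 3 Plus instrument in a single run. They aligned reads to NCBI37/mm9 with PASS, allowing up to 2 mismatches but no gap in the best hit, and deposited raw counts of reads aligned to a single gene, for genes covered over more than a set share of their length. The annotation is not given in the sources used here.

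Counts were divided by the aligned reads given in the paper to obtain RPM. Entrez IDs were matched to RefSeq symbols for 12690 of 12700 genes, and symbols to GENCODE vM1 for 12422, of which 12231 had GC content and length. Log2 ratios used a count of 0 set to 1. The Poisson likelihood ratio test was run on every gene, and p-values are not printed because there is 1 library per condition. The steps were tested on simulated data.

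Library sizes, as reads on genes, were 23475080 (CxH), 20266394 (CxWT), 22057807 (MH) and 16380080 (MWT), and 3 reads, the limit that a count of 0 allows, were 0.0779, 0.0892, 0.0803 and 0.104 RPM. Standard errors, intervals and floors cover counting error only.

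The genes and lists were chosen with earlier results of these data known. From each activity list the text names the 4 called genes with at least 100 reads and the largest ratios in Cx and in M, with Srf, Nab1 and Nab2. A few genes that the rule on likeness of pattern names are not reported here. Alternatives were column totals, TMM factors, DESeq2 size factors, Benjamini-Hochberg adjusted p-values, a log2 threshold raised to 1, an edgeR exact test with an assumed coefficient of variation of 0.2 or 0.4, at least 100 reads, 0.5 added to counts, and a spline correction for GC content and length. The tools were edgeR 4.0.16 and DESeq2 1.42.0 in R 4.3.3, and Python 3.11.15 with scipy 1.17.1, numpy 2.4.6, patsy 1.0.2, pandas 2.3.3 and matplotlib 3.10.9.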

Additional observations from a re-analysis of the deposited data

Results flagged for a closer look

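Ids had log2 ratios of -1.39 in CxH vs. CxWT and 1.24 in MH vs. MWT, opposite in sign, and of -1.44 for CxH vs. MH but 1.19 for CxWT vs. MWT. With 1 library per condition these differences between comparisons were not tested beyond counting error.

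Npas4 had a log2 ratio of 0.18 for CxH vs. MH but -0.33 for CxWT vs. MWT, opposite in sign, as in no other of the 10 immediate early genes before correction. After correction for GC content and length, 6 of the 10 (Fosb, Jun, Egr3, Egr4, Nr4a1 and Npas4) had opposite signs in these pairs. Some of these signs rest on corrected ratios within their counting error, as for CxH vs. MH in Egr4 (-0.05 ± 0.063) and Npas4 (0.02 ± 0.068). The share of all genes with opposite signs was not counted. Nr4a3, among the other rapid response genes named, had -0.44 and 0.53 in the same comparisons. Neither difference was tested against variation between pools.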

How the results depend on the processing

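Of 60 counts of called immediate early genes, 6 pairs of libraries under 10 alternatives, 59 stayed within 1.5 times the reported count. The exception was CxWT vs. MWT with an assumed coefficient of variation of 0.4, where 0 genes were called in place of 4, and where 20 genes of the whole table were. Of 600 single ratios, 0 changed sign with a call, 23 lost the call and 1 gained it. Of 180 counts for the other activity lists, 33 moved by more than 1.5 times, 16 of them with the assumed variation of 0.4. The scaling moved the median log2 ratio of all genes by over 0.1 in CxH vs. MWT (-0.11, column totals) and MH vs. CxWT (0.11, TMM and DESeq2). No replicate could be left out, since each condition has 1 library. No paired analysis was possible because each comparison sets 1 library against 1 library, so its groups share fewer than 2 replicates. Depth limits Egr3, Egr4 and Fosb most, with 52 to 77 reads in MWT.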
